A study of Mus musculus with 6 samples.

Results

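The genes described here are 8 genes of plasma cells, the antibody-secreting end stage of the B cell lineage, out of 14860 genes with a usable array entry. They were chosen by name as genes of the plasma cell program and in part selected on their treated-against-control differences in these same arrays, those of Sdc1 and Tnfrsf17 above all. Their own differences are therefore given as a description with no test. All 8 were found, each with a single-gene entry on the array.

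RNA from spleen cells of each mouse was hybridised to 1 Affymetrix exon array after the cells had been picked out with anti-Sca-1 microbeads. Sca-1 is a surface protein of primitive blood cells that is also found on many lymphocytes. All 6 mice, on the FVB/N background, carried both transgenes, NRASD12, an activated form of the signalling protein NRAS, and BCL-2, a survival protein. The labels call them mice with AML, acute myeloid leukaemia. The 3 controls are described as untreated, and the 3 treated mice were given doses of 75 mg/kg ABT-737 over 33 days, 3 in each week. ABT-737 is a small molecule inhibitor of BCL-2 and its relatives BCL-XL and BCL-W. Whether the controls received vehicle, the age of the mice and the promoters driving the transgenes are unstated in the sources at hand. Ly6a, which encodes Sca-1, was not analysed here. Values are log2 array signals, so a difference of 1 is a doubling, and mice are numbered in accession order within each group. Median signals were 6.86 to 7.13 in the controls, with control mouse 2 the lowest, and 7.07 to 7.14 in the treated mice. On the first principal component of all genes, which held 44.1% of the variance, treated mouse 1 (-7.42) lay nearer the controls (-21.0 to -15.0) than treated mice 2 and 3 (32.2 and 28.1). Control mouse 3 also stood apart by low signal of the Y-linked genes Kdm5d, 4.77 against 8.05 or more in every other mouse, and Eif2s3y, 4.23 against 9.87 or more.

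When a B cell becomes a plasma cell, the transcription factors IRF4 and BLIMP-1, the product of Prdm1, shut down the B cell program, and XBP1 enlarges the endoplasmic reticulum (ER) for antibody secretion. Syndecan-1 (CD138, from Sdc1) and BCMA (from Tnfrsf17) then mark the cell surface. BCMA receives the survival signals APRIL and BAFF, which myeloid cells are known to make.

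Both surface markers were higher in every treated mouse than in any control. Sdc1, a heparan sulfate proteoglycan, read 8.48, 8.01 and 8.60 in control mice 1, 2 and 3 and 9.45, 9.40 and 10.37 in treated mice 1, 2 and 3. The groups did not overlap, the lowest treated mouse lay 0.80 above the highest control, and treated mouse 3 stood apart above the other treated mice. The means were 8.36 ± 0.31 and 9.74 ± 0.55 (SD, n = 3 each), so that treated minus control was 1.38 log2 (SE 0.29), or 2.60-fold. Tnfrsf17 read 7.28, 6.68 and 6.94 in the controls and 7.79, 8.10 and 9.22 in the treated mice. Here too the groups did not overlap, with a gap of 0.51, and treated mouse 3 was the highest. Its means were 6.97 ± 0.30 and 8.37 ± 0.75 (SD, n = 3 each), a difference of 1.40 (SE 0.36), or 2.65-fold. Relative to the control mean, Sdc1 was 4.02-fold and Tnfrsf17 4.77-fold higher in treated mouse 3. In treated mouse 1, the treated mouse nearest the controls on the first principal component, Sdc1 was still 2.12-fold and Tnfrsf17 1.77-fold higher. Without treated mouse 3 the differences were 1.06 (SE 0.20) for Sdc1 and 0.98 (SE 0.21) for Tnfrsf17. Because these are bulk samples, more plasma cells, more RNA per plasma cell and signal from other cells cannot be told apart in any of these values.

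**Figure D1:**
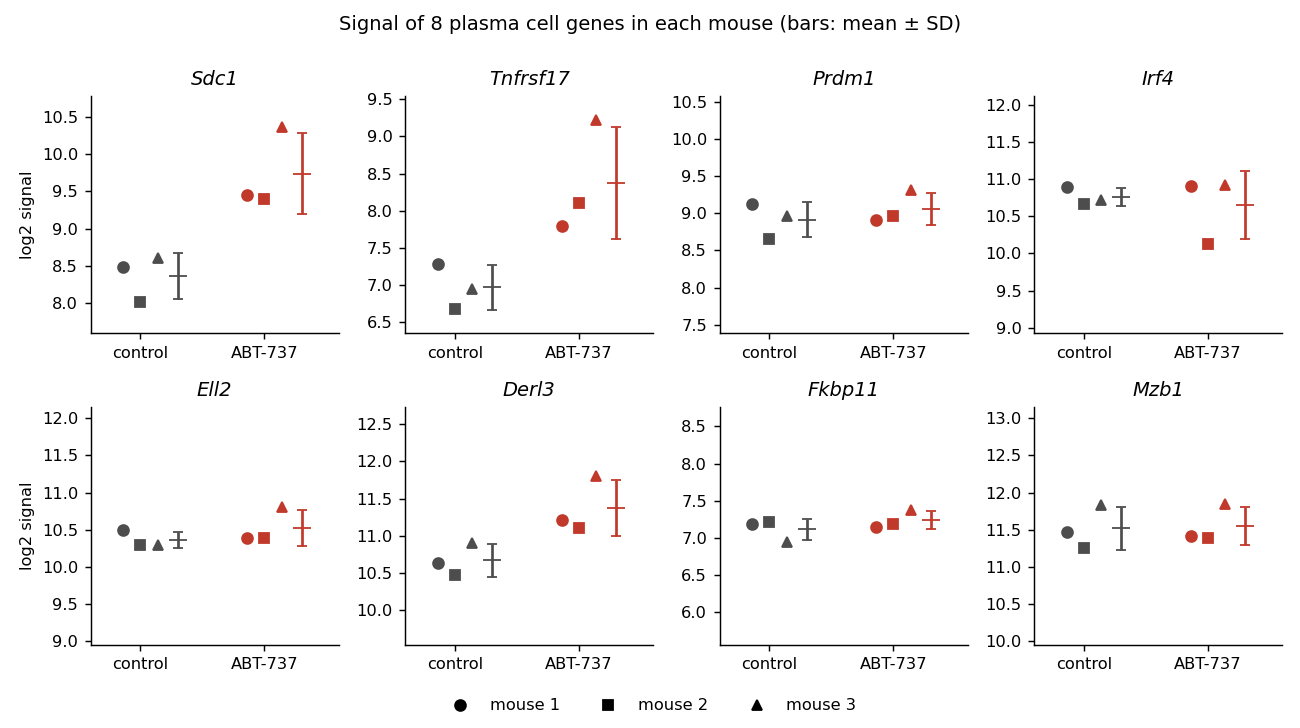
Log2 signal of each of the 8 plasma cell genes in control and ABT-737-treated mice, with a marker shape for each mouse number and the group mean ± SD (n = 3) beside the points; every panel spans the same log2 range. Groups separated for Sdc1, Tnfrsf17 and Derl3 and overlapped for the other 5 genes, and treated mouse 3 was highest in all panels.

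The transcription factors that set up the plasma cell state differed little between the groups. Prdm1 read 9.12, 8.66 and 8.97 in the controls and 8.91, 8.96 and 9.31 in the treated mice. The groups overlapped, with a single treated mouse above all controls, and the difference was 0.14 (SE 0.17). Irf4 read 10.90, 10.67 and 10.72 in the controls and 10.91, 10.13 and 10.92 in the treated mice. Treated mouse 2 was the lowest of all 6 for this gene, while the other two treated mice lay just above control mouse 1. Irf4 was the only member with a lower treated mean, at -0.11 (SE 0.22), and without treated mouse 2 that difference was 0.15. Both factors are also made by activated T cells and some myeloid cells, so their signal in this mixture is not specific to the plasma cell lineage. Ell2, an elongation factor that in plasma cells favours the secreted form of the immunoglobulin heavy chain mRNA, read 10.49, 10.30 and 10.30 in the controls and 10.39, 10.39 and 10.81 in the treated mice. Its groups overlapped, with treated mouse 3 alone above the controls, and its difference of 0.17 (SE 0.15) was 0.03 without that mouse.

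Of the 3 members that work in the ER, Derl3 separated the groups and Fkbp11 and Mzb1 did not. Derl3, which encodes derlin-3 of the machinery that removes misfolded proteins from the ER, read 10.63, 10.47 and 10.90 in the controls and 11.21, 11.10 and 11.80 in the treated mice. All treated mice lay above all controls, with a gap of 0.20 and treated mouse 3 again the highest. Its means were 10.67 ± 0.22 and 11.37 ± 0.38 (SD, n = 3 each), a difference of 0.70 (SE 0.21), or 1.63-fold. Fkbp11, a peptidyl-prolyl isomerase of secretory cells, read 7.19, 7.21 and 6.95 in the controls and 7.15, 7.19 and 7.38 in the treated mice, a difference of 0.12 (SE 0.13) with overlapping groups. Mzb1, an ER cochaperone of marginal zone B cells and plasma cells that aids immunoglobulin assembly, read 11.47, 11.26 and 11.83 in the controls and 11.42, 11.39 and 11.85 in the treated mice. Control mouse 3 and treated mouse 3 were almost level for Mzb1, and the difference was 0.03 (SE 0.19), or -0.05 with arrays centred on their medians or quantile normalized. Thus 3 of 8 members had all treated mice above all controls and 0 had all below, beside 6.14% and 7.19% of all genes. Treated means were higher for 7 of 8 members, beside 44% of all genes. The median difference of the 8 members was 0.16, beside -0.02 for all genes.

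The promoters of the members are shown for the genes whose window held a motif of the ER stress response or of interferon regulatory factors. RefSeq windows of the mouse build GRCm38.p6, from 250 bases before to 50 after the transcription start, were found for 7 of the 8 genes, with more than 1 window for Fkbp11. Both strands were searched for the ER stress response element, CCAAT followed by CCACG with 9 bases of any kind between them, which ATF6 binds together with NF-Y. The shorter element searched was ATTGG and CCACG with 1 base between. The search also covered TGACGTG, the core of the element bound by XBP1 and ATF6, and 2 motifs of interferon regulatory factors, GAAA and GAAA with 2 bases between and GGAA and GAAA with 2 bases between. The last motif was AGNGAAAG, a part of the BLIMP-1 site. Capitals mark the matches below, all of them on the strand opposite to the gene. Derl3 (chr10:75893148-75893447, plus strand) holds the full ER stress response element from position -156 relative to the start, Fkbp11 (chr15:98727578-98727877, minus strand) the XBP1 core from the start itself, and Tnfrsf17 (chr16:11313559-11313858, plus strand) the paired GAAA motif from position -101.
Derl3: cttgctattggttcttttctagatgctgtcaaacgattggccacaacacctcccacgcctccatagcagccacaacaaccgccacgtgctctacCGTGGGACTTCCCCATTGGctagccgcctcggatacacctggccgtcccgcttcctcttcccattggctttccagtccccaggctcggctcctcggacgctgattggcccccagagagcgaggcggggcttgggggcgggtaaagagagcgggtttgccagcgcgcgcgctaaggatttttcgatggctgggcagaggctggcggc
Fkbp11: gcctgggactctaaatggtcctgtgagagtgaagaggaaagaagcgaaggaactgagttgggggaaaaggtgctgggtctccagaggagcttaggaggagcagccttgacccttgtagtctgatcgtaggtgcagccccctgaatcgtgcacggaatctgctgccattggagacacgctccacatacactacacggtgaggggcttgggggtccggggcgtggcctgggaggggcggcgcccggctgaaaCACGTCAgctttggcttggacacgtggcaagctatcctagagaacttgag
Tnfrsf17: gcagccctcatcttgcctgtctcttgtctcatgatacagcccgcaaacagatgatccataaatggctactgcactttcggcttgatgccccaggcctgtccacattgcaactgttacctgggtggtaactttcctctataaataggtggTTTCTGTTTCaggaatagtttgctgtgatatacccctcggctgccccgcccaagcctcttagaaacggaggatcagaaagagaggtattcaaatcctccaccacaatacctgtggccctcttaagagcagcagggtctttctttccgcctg
The ER stress response element is found in 0.119% of 32851 promoter windows of this length, TGACGTG in 2.01% and the paired GAAA motif in 3.44%. The shorter stress element, the GGAA and GAAA motif and AGNGAAAG, with shares of 0.0365%, 2.72% and 8.63%, had no match in a member's window. The pentamer CCACG, which ends the ER stress response element and is not capitalised on its own, is common, at 32.8% of windows. A match is a description of these letters and not a measured binding site. Derl3, with its separated groups, and Fkbp11, with overlapping groups, both carry such a motif. The other window of Fkbp11, not shown, holds no match, and the windows of Sdc1, Prdm1, Irf4 and Ell2 hold none of the longer ones.

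Although only 3 members separated the groups, all 8 had their highest value of the 6 mice in treated mouse 3. Of all genes, 24.5% were highest in that mouse. Under centring of each array on its median the number was 7 of 8, beside 17.2% of all genes. Under quantile normalization it was 5 of 8, beside 22.7%. At the other end, control mouse 2 held the lowest value of 6 members, in 1 of them tied with control mouse 3, beside 25.2% of all genes. Its array had the lowest median, and after centring it was lowest for 2 members, beside 5% of all genes. Averaged over the 8 members, the deviation from the control mean was 0.11, -0.18 and 0.07 for the controls. Among the treated animals it was 0.32 for mouse 1, 0.25 for mouse 2 and 0.87 for mouse 3. These means are carried by Sdc1, Tnfrsf17 and Derl3. The median deviation of the members was 0.09, 0.06 and 0.42 in the treated animals, in the same order, and 0.12, -0.23 and 0.01 in the controls, so by the median treated mouse 3 alone lay above every control. The members also differed in how alike they were across the mice. Sdc1 and Tnfrsf17 differed by a root mean square of 0.20 log2 per mouse after each gene was centred on its own mean. Prdm1 and Ell2 differed by 0.10 and Fkbp11 and Ell2 by 0.11, whereas Tnfrsf17 and Irf4 were the most unlike pair at 0.88. Derl3 lay between, 0.36 from Sdc1 and 0.32 from Ell2.

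**Figure D2:**
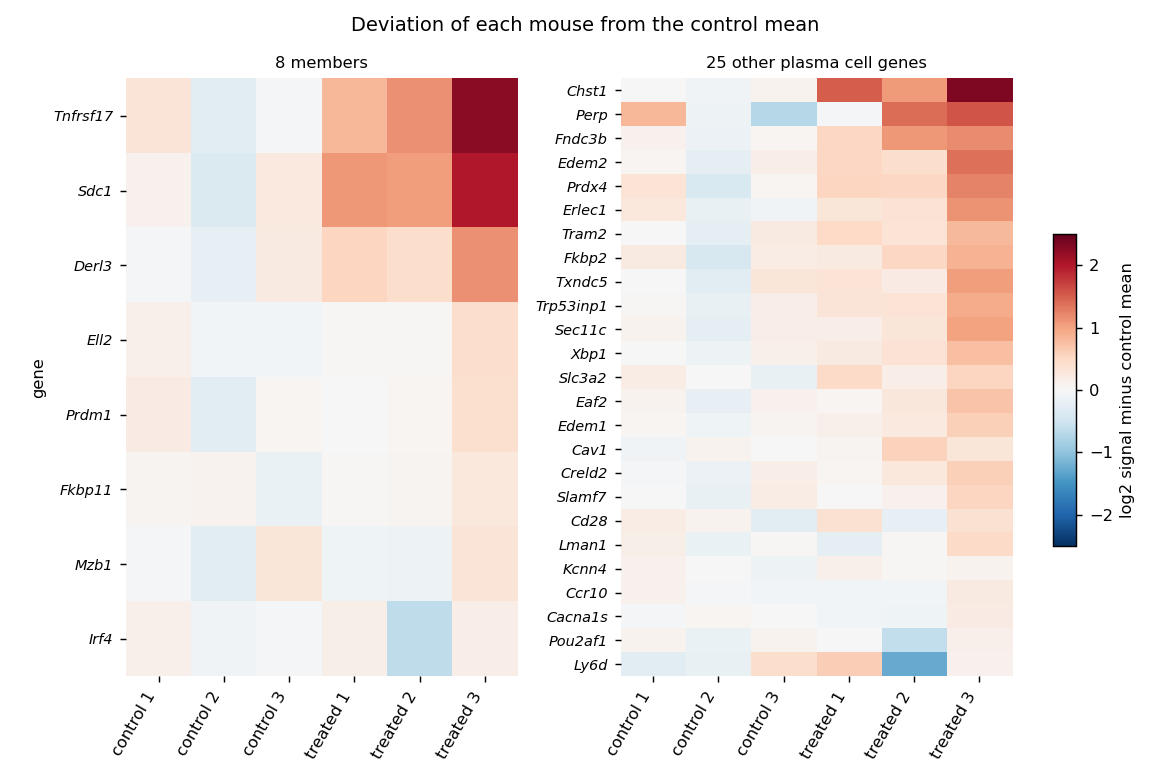
Log2 signal of each mouse minus the control mean of the gene, in colour, for the 8 members (left) and the 25 other plasma cell genes measured (right), with genes sorted by their difference and 1 column per mouse. Treated mouse 3 was highest for 8 of 8 members and 22 of 25 other genes, in 1 of the latter (Cd28) level with treated mouse 1. It was highest for 24.5% of all genes.

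**Figure D3:**
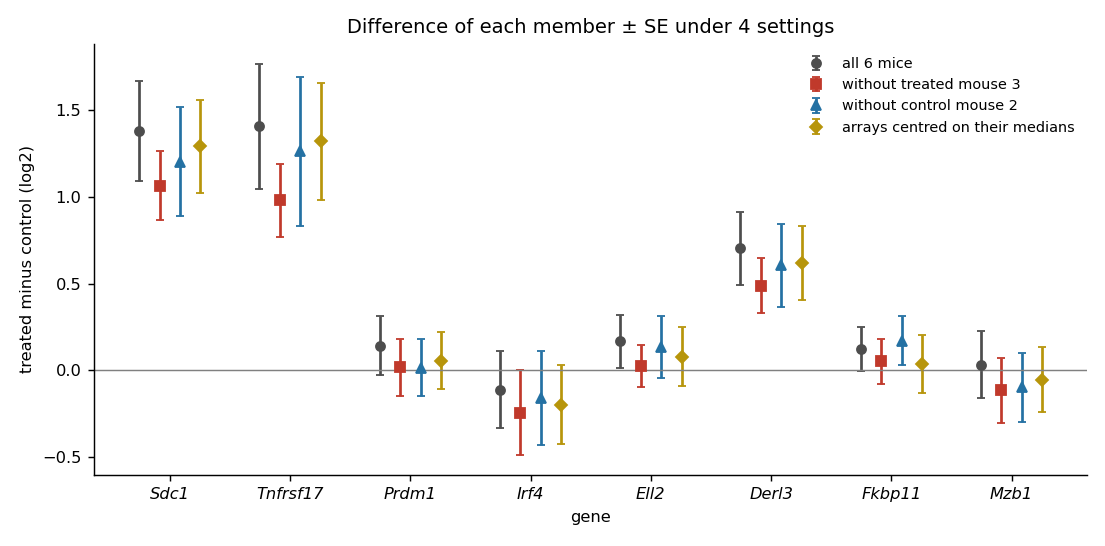
Treated minus control difference (log2) of each member with its SE, for all 6 mice, without treated mouse 3, without control mouse 2 and with arrays centred on their medians. Sdc1, Tnfrsf17 and Derl3 stayed above 0 in all 4 settings, and the other members lay within 0.25 of 0.

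In a wider list of plasma cell genes most treated means were higher. The list was drawn up with earlier results of these arrays known, and 25 of its 33 genes were measured. Treated means were higher for 23 of the 25, and the median difference was 0.40 beside -0.02 for all genes. By limma, 0 genes of this list passed an adjusted p of 0.05, as did 0 of all 14860 genes (0%). At an unadjusted p under 0.05, 10 of the 25 were higher (40%) and 0 lower, while 5.75% of all genes were higher and 4.45% lower. That number was 2 (8%, beside 3.07% of all genes) without control mouse 2, 4 (16%, beside 3.84%) without treated mouse 3 and 15 (60%, beside 10.3%) without treated mouse 1. Of all genes with an unadjusted p under 0.05, 56.3% were higher, 34.4% under quantile normalization and 32.0% with arrays centred. The list gave 8 higher genes (32%, beside 4.96% of all genes) and 7 (28%, beside 4.16%) in those settings and 0 lower.

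The largest difference of that list was in Chst1, a sulfotransferase that modifies keratan sulfate. It read 7.34, 7.26 and 7.44 in the controls and 8.86, 8.42 and 9.68 in the treated mice, a difference of 1.64 (SE 0.29, adjusted p = 0.241 by limma). Controls were tightly grouped and every treated mouse lay about 1 log2 or more above them. Fndc3b, a membrane protein with fibronectin type III domains, was 0.93 higher (SE 0.19; limma adjusted p = 0.277), and Tram2, linked to protein translocation into the ER, by 0.55 (SE 0.17, adjusted p = 0.384 by limma). Xbp1, the factor that drives ER expansion in plasma cells, read 12.00, 11.88 and 12.12 in the controls and 12.23, 12.36 and 12.76 in the treated mice. All treated mice lay above the controls for Xbp1, by a difference of 0.45 (SE 0.16, adjusted p = 0.424 by limma). The remaining genes at an unadjusted p under 0.05, singled out after their values were seen, were Edem2 at 0.78, Prdx4, an ER peroxiredoxin, at 0.76, Erlec1 at 0.59, Fkbp2 at 0.54, Trp53inp1 at 0.54 and Slc3a2, the heavy chain of amino acid transporters, at 0.40. Edem2 and Erlec1 act on misfolded glycoproteins in the ER. Eaf2, a binding partner of the ELL proteins, was 0.35 higher (SE 0.19; limma adjusted p = 0.603), with overlapping groups. The 2 genes with lower treated means were Pou2af1 (-0.16), a B cell coactivator, and Ly6d (-0.18), both also expressed by B cells. Treated mouse 2 was the lowest of the 6 for both, as it was for Irf4. Jchain was on the list but had no usable array entry. Of 21 entries on a list of immunoglobulin and related genes, only 1 was measured, Vpreb3, which does not encode an antibody chain. Vpreb3 was 0.42 higher (SE 0.13, adjusted p = 0.387 by limma), with groups that did not overlap. No gene of an antibody chain is described here.

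The list of ER secretory and unfolded protein genes held about as many lower as higher genes. It shares 5 genes with the list of other plasma cell genes: Xbp1, Sec11c, Creld2, Edem1 and Lman1. Some ER genes with higher treated means, among them Derl3, Edem2, Prdx4 and Erlec1, were counted with the plasma cell genes and not here. The medians of these lists therefore depend on how the genes were sorted. Of 47 ER secretory and unfolded protein genes measured, 23 had higher and 24 lower treated means, with a median of -0.03. By limma 0 passed the adjusted threshold, and 4 were higher (8.51%, beside 5.75% of all genes) and 0 lower at an unadjusted p under 0.05. The 4 included Sel1l, the scaffold of the ubiquitin ligase complex that works with derlins, which read 10.51, 10.30 and 10.75 in the controls and 11.11, 11.18 and 11.82 in the treated mice. The groups of Sel1l were separate, with a difference of 0.85 (SE 0.22, adjusted p = 0.330 by limma). Ern1, the stress sensor IRE1 that activates XBP1 by splicing its mRNA, was 0.69 higher (SE 0.19; limma adjusted p = 0.332), with all treated mice above all controls. Xbp1, counted in both lists, was another, and Kdelr3, a receptor that returns ER proteins, the last at 0.57. By contrast Hspa5, the main ER chaperone BiP, read 12.55, 12.42 and 12.52 in the controls and 12.54, 12.37 and 12.47 in the treated mice, a difference of -0.04 (SE 0.11). Among the relatives of Derl3, Derl1 differed by 0.18 (SE 0.11) and Derl2 by -0.04 (SE 0.21). The number of higher genes was 10 (21.3%, beside 10.3% of all genes) without treated mouse 1 and 2 (4.26%) without control mouse 1, without control mouse 2 or with arrays centred, beside 5.14%, 3.07% and 4.16% of all genes.

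**Figure D4:**
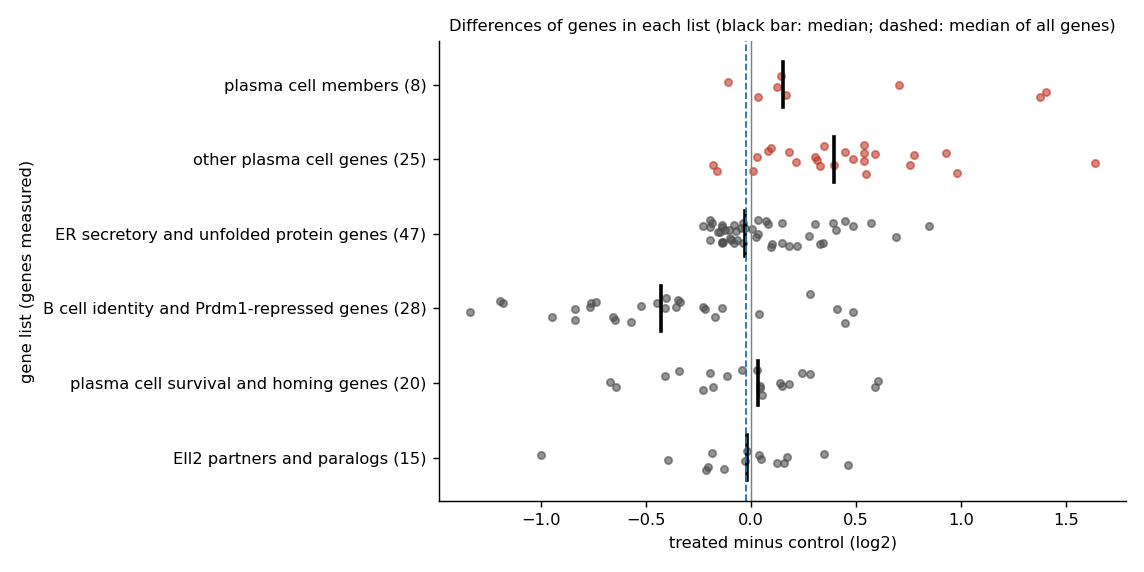
Treated minus control difference (log2) of every measured gene in 6 lists, 1 point per gene, with the list median as a black bar and the median of all genes as a dashed line. The other plasma cell genes had a median of 0.40, the ER genes -0.03 and the B cell genes -0.43.

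Genes that a B cell loses on its way to a plasma cell were mostly lower. Of 28 B cell identity and Prdm1-repressed genes measured, 23 had lower treated means, beside 8211 of all 14860 genes. The median difference of the list was -0.43. By limma 0 passed the adjusted threshold, and 8 were lower (28.6%, beside 4.45% of all genes) and 0 higher at an unadjusted p under 0.05. Fcrla, a B cell Fc receptor-like protein, was lower at -0.84 (SE 0.19, adjusted p = 0.283 by limma), Cd83, an activation marker, at -1.19 (SE 0.28, adjusted p = 0.292) and Cxcr5, the follicle homing receptor, at -1.18 (SE 0.28, adjusted p = 0.307), each with groups that did not overlap. Pax5, the factor that maintains B cell identity and is repressed by BLIMP-1, read 11.81, 11.66 and 11.91 in the controls and 11.97, 10.61 and 10.86 in the treated mice. Treated mouse 1 was thus the highest of all 6 for Pax5 and the other two treated mice the lowest, so the groups overlapped (difference -0.65, SE 0.33, adjusted p = 0.571 by limma). Bcl6 and Bach2, which oppose plasma cell differentiation, differed by 0.41 (SE 0.27) and 0.04 (SE 0.37). Relative to its controls, the mean of the B cell list stood at -0.04 for treated mouse 1 but at -0.65 for mouse 2 and -0.64 for mouse 3. Without treated mouse 1, the number of lower genes was 17 (60.7%, beside 4.48% of all genes) and that of higher genes 3 (10.7%, beside 10.3%). In that setting 11 of the 28 passed the adjusted threshold by limma, beside 510 of all 14860 genes. Chst1 and Fndc3b of the 25 other plasma cell genes and Ern1 of the 47 ER genes also passed there, as did genes of other lists. With arrays centred 14 of the B cell genes were lower (50%, beside 8.84%).

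Ligands and receptors of plasma cell survival showed no common direction. Of 20 survival and homing genes measured, 11 had higher and 9 lower treated means (median 0.04), and 1 was higher (5%) and 1 lower (5%) at an unadjusted p under 0.05, beside 5.75% and 4.45% of all genes. Tnfsf13b, which encodes BAFF, read 6.57, 6.47 and 6.25 in the controls and 6.59, 7.83 and 6.64 in the treated mice, so that its difference of 0.59 (SE 0.32, adjusted p = 0.606 by limma) came mostly from treated mouse 2. For Tnfsf13, which encodes APRIL, no value is available here, so BAFF is the only ligand of BCMA described. Tnfrsf13b, the receptor TACI that shares these ligands with BCMA, differed by 0.04 (SE 0.29). The adhesion receptor Cd44 was 0.61 higher (SE 0.21; limma adjusted p = 0.405). Il6, a plasma cell survival cytokine, and Cxcr4, the receptor that holds plasma cells in marrow, were lower at -0.64 (SE 0.27, adjusted p = 0.488) and -0.34 (SE 0.15, adjusted p = 0.514), with overlapping groups. Il6 signal was low, at 4.22 to 5.15 in the controls and 3.77 to 4.48 in the treated mice, beside array medians of 6.86 or more. With the dimmest 30% of genes left out, 0 of 18 genes of the list were lower at that threshold. Of the other syndecans, Sdc3 was 0.55 higher (SE 0.17; limma adjusted p = 0.383), Sdc4 lower at -0.35 (SE 0.17, adjusted p = 0.535) and Sdc2 level at 0.03 (SE 0.11). Among 15 partners and paralogs of Ell2, 7 had higher and 8 lower treated means. Ell was 0.46 higher (SE 0.15; limma adjusted p = 0.390) and Ell3 lower at -1.0 (SE 0.39, adjusted p = 0.455), and Larp7 stood at -0.40 (SE 0.21).

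Genes whose values across the mice were most like those of the members were sought among 7424 other genes with a mean signal at or above the median. Likeness was the root mean square difference per mouse between values centred on each gene's own mean, over all 6 mice. For Sdc1 the nearest were Pon3, a paraoxonase (0.13), Cacna1h, a T-type calcium channel subunit (0.14), Fads3 (0.22), Chst1 (0.22) and Ccpg1, a receptor for autophagy of the ER (0.22). Pon3 read 8.87, 8.45 and 8.84 in the controls and 9.69, 9.73 and 10.42 in the treated mice. For the mean of the 8 members the nearest were Ankrd55 (0.05), Qpctl (0.05), Trp53inp1 (0.06), Atp9a (0.07) and Capn5 (0.07). Chst1 and Trp53inp1 were also on the list of other plasma cell genes. With 6 arrays that share their scaling, such likeness is a description only.

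**Figure D5:**
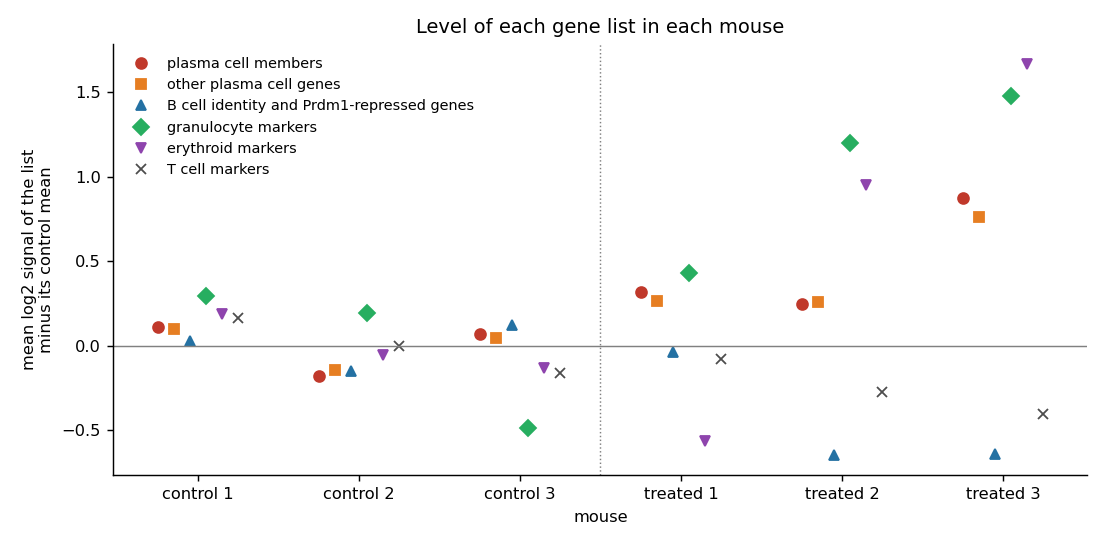
Mean log2 signal of 6 gene lists in each mouse, minus the mean of that list in the controls. The 8 members and the other plasma cell genes moved closely together and peaked in treated mouse 3, at 0.87 and 0.76, where the granulocyte and erythroid markers were also highest.

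Markers of other cells moved across the same mice. For comparison, 6531 of all 14860 genes had higher and 8211 lower treated means. Of 13 granulocyte markers, 9 had higher treated means, and the median difference was 1.13. By limma, 8 were higher (61.5%, beside 5.75% of all genes) and 0 lower at an unadjusted p under 0.05. The 4 with lower treated means were Elane, Mpo, Prtn3 and Ctsg, at -0.32 to -0.73. The mean log2 signal of the list, which mixes both directions, ran from 10.74 to 11.53 in the controls and from 11.66 to 12.71 in the treated mice. All 11 monocyte and macrophage markers had higher treated means, with list means of 9.63 to 10.19 in the controls and 9.99 to 10.65 in the treated mice. All 6 erythroid markers did so too, with 7.61 to 7.93 and 7.18 to 9.42, and treated mouse 3 was the highest. Of 11 T cell markers, 9 had lower treated means, with 10.63 to 10.96 and 10.39 to 10.72. Of 11 epithelial and stromal markers, among them genes of cells that also make syndecan-1, 6 were higher and 3 lower, with 6.57 to 6.72 in the controls and 6.71 to 6.92 in the treated mice. Within that list Epcam was 0.95 higher (SE 0.39; limma adjusted p = 0.470), with 8.74 in treated mouse 3, and Cdh1, another epithelial gene, differed by 0.31 (SE 0.20). Of 7 dendritic cell markers 2 were higher and 5 lower (7.50 to 8.07 and 7.57 to 7.84), of 6 NK cell markers 1 and 5 (6.99 to 7.25 and 6.40 to 7.29), and of 10 proliferation genes 1 and 9 (9.79 to 10.31 and 9.13 to 10.08). Array signals have no zero, so no marker can be called absent, and the part of these cells in the differences of the plasma cell genes was not tested.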

How the data were processed

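Per the labels' protocols, biotinylated RNA of bead-selected Sca-1+ splenocytes was put on 1 Affymetrix exon array for each of 6 mice. The deposited table was taken to hold log2 signals, since its values span 2.6 to 14.3. The submitters' processing notes name genome build mm9, and the normalization, summarisation and filters are not given in the sources used here. No scanner files or detection calls were used, so precision rests on how many arrays there are.

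The platform annotation named a single gene for 14996 of 23332 entries, more than 1 gene for 1019, and no gene for 7317. Only entries with 1 symbol were used, and of 135 genes with several such entries the one with the highest mean was kept. Through Entrez numbers 14941 symbols were matched to RefSeq, and 0 changed. Groups came from the treatment labels. The mice are separate animals, and nothing pairs them.

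Differences, with their SE, were fitted over all 14860 genes by limma 3.58.1 under R 4.3.3, using lmFit and eBayes. P-values were adjusted by Benjamini-Hochberg over all genes, the threshold was 0.05, and the fit was tested on simulated data. Members, gene lists and motifs were chosen with earlier results of these data known. Named genes were the members, the 3 genes of each list with the smallest p, a fixed set that included Xbp1, Pax5 and Hspa5, and the 5 nearest profiles. Not all of these are described. Alternatives were quantile normalization, centring of arrays, the mean of a gene's entries, leaving out each mouse and, for all genes, a filter on the dimmest 30%, a trended and robust variance and array weights. The plots came from Python 3.11.15 and matplotlib 3.10.9.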

Additional observations from a re-analysis of the deposited data

How the results depend on the processing

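The number of genes past the adjusted threshold by limma was 0 with all mice, 14 without the dimmest 30% of genes and 2 with array weights. Leaving out 1 mouse gave 0 to 510, namely 510 when treated mouse 1 was dropped and 1 when treated mouse 3 was. Unadjusted calls ran from 1090 to 2191 over all alternatives, around 1516. The differences of Sdc1 (1.06 to 1.55), Tnfrsf17 (0.98 to 1.69) and Derl3 (0.49 to 0.84) kept their direction under every normalization, entry rule and left-out mouse. Prdm1 (0.015 to 0.25), Ell2 and Fkbp11 also kept it, while Irf4 ran from -0.24 to 0.15 and Mzb1 from -0.12 to 0.19. The member median was 0.09 under quantile normalization, 0.07 with arrays centred and 0.04 to 0.24 when 1 mouse was left out. The median of the B cell list ran from -0.77, without treated mouse 1, to -0.30, without treated mouse 2. The ER list median, near 0, ran from -0.12 to 0.09. The causes were not tested. No paired analysis was possible because the labels give the groups no mouse numbers in common.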
